A study of Homo sapiens with 28 samples.

Results

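Nucleolar ribosome biogenesis factors are the proteins that transcribe, modify, cut and fold the ribosomal RNA precursor in the nucleolus and load it with ribosomal proteins. A list of 40 such genes, taken by gene symbol or alias, was followed through a MYCN induction time course in a neuroblastoma line. Single-gene probe sets measured 33 of the 40, and all 33 passed the filter on dim genes, among 11865 genes tested of 19775 measured. NOP56, DKC1, BOP1 and PPAN were covered only by probe sets annotated to several genes, GNL3, EBNA1BP2 and DDX18 matched no probe set in the annotation used, and these 7 genes were not analysed here. Each gene was read through its brightest probe set (mean of log2 signal over the 28 arrays), and all results are for those probe sets.

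The cells were SK-N-AS, a neuroblastoma cell line whose MYCN is not amplified. The MYCN line, named SK-N-AS-tet in the labels, carries a doxycycline-inducible MYCN, and the mock line carries pcDNA6TR without it; both were harvested after doxycycline was added, so the drug is shared by the 2 lines. The MYCN line gave 3 arrays at each of the times 0, 4, 8, 24, 48, 96 and 192 (21 arrays), and the mock line gave 1 array at each time (7 arrays). The unit of the times is not stated in the labels. The labels number the replicates without saying whether they were separate cultures, so p-values measure the spread between these arrays, which may be technical. Signals are per bulk sample, so fewer expressing cells and less RNA per cell cannot be told apart, and because every array was scaled to the same mean a change in total RNA per cell is not seen. Whether either line is 1 clone is not given in the sources used here.

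A ribosome is built in stages. RNA polymerase I, with the factor UBTF, transcribes a long precursor, small nucleolar RNPs of the box C/D and box H/ACA kinds guide methylation and pseudouridylation of it, and the U3 RNP and the UTP proteins bind its front end to form the small subunit processome. Separate sets of helicases, GTPases and scaffold proteins then mature the large and the small subunit and release them for export. Ribosome biogenesis genes are a textbook target class of MYC proteins, which bind DNA with MAX at the E-box CACGTG.

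That E-box was searched for in RefSeq promoter windows (build GRCh38.p14, 250 bases before to 50 after each gene's start, 300 bases in all; the motif is its own reverse complement, so 1 search covers both strands). Windows were found for 27 of the 33 measured factors. More than 1 window, each with its own start, was found for 6 of them. A gene counted as having a motif where any of its windows held it. DDX21, GAR1 and LYAR held CACGTG in 1 window and not in the other. CACGTG was present in 15 of the 27 (55.6%), in 23 of 72 other ribosome assembly factors with a window (31.9%) and in 1251 of 9731 tested genes with a window (12.9%). CACGCG, a related motif searched on both strands as CACGCG and CGCGTG, was present in 7 of the 27 (25.9%) and in 22.5% of the tested genes. In 14 of the 15 factors with CACGTG (93.3%) a copy began within 40 bases of the start of its window's gene model, against 33.9% of the 1251 tested genes that held one. The limit of 40 bases lies just past the farthest copy it takes in (36 bases, NOP2), which favours the factors, so the 2 shares are a description only. LYAR, with its copy beginning 64 bases before the start, was the exception. Such a match is a description of the letters in the window, and binding was not measured here.

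Stretches from 90 bases before to 30 bases after the start are shown for 8 factors, 6 that rose after induction (RRP9, PNO1, UTP20, GNL2, FBL and NOC3L) and 2 that passed no test against time 0 (WDR43, which passed at time 192 once the replicate number was a block, and NOP10), because the same motif sits at a similar place in both kinds. Each reads 5′ to 3′ along its gene, and the capitals mark CACGTG. They are from RefSeq, build GRCh38.p14. RRP9 lies at chr3:51941875-51941994 (minus strand), PNO1 at chr2:68157798-68157917 (plus), UTP20 at chr12:101280015-101280134 (plus), GNL2 at chr1:37595908-37596027 (minus), FBL at chr19:39846350-39846469 (minus), NOC3L at chr10:94362910-94363029 (minus), WDR43 at chr2:28894577-28894696 (plus) and NOP10 at chr15:34343107-34343226 (minus).
RRP9: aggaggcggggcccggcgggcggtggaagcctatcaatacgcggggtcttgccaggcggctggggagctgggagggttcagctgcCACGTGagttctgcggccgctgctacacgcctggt
PNO1: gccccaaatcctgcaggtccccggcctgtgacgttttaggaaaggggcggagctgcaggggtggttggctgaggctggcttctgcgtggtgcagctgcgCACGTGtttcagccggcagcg
UTP20: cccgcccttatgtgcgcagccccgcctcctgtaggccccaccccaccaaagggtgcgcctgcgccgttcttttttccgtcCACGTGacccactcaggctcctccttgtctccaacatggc
GNL2: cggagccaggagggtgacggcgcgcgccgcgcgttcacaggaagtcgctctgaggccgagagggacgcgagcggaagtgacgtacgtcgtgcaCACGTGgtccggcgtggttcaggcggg
FBL: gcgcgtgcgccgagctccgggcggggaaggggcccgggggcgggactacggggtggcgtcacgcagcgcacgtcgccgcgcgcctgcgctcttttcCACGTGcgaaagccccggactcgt
NOC3L: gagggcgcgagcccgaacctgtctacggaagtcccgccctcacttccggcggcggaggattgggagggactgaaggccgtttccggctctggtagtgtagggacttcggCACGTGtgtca
WDR43: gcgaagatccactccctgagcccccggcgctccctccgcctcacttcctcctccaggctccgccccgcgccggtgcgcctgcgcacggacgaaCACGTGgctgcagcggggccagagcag
NOP10: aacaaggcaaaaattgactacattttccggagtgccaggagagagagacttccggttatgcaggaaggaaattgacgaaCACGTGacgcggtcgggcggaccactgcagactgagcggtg

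The motif began 5 bases before the start in RRP9, 10 before it in UTP20 and 11 before it in NOP10, where a second copy lay 170 bases before the start. It began 4 bases after the start in GNL2 and in WDR43, 7 after it in FBL, 10 after it in PNO1 and 20 after it in NOC3L. Among the 15 factors with the motif, 9 rose at time 192, with a median log2 change of 0.36. Among the 12 with a window and no motif, 5 rose, with a median of 0.29. No test was made between the 2 sets.

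**Figure D1:**
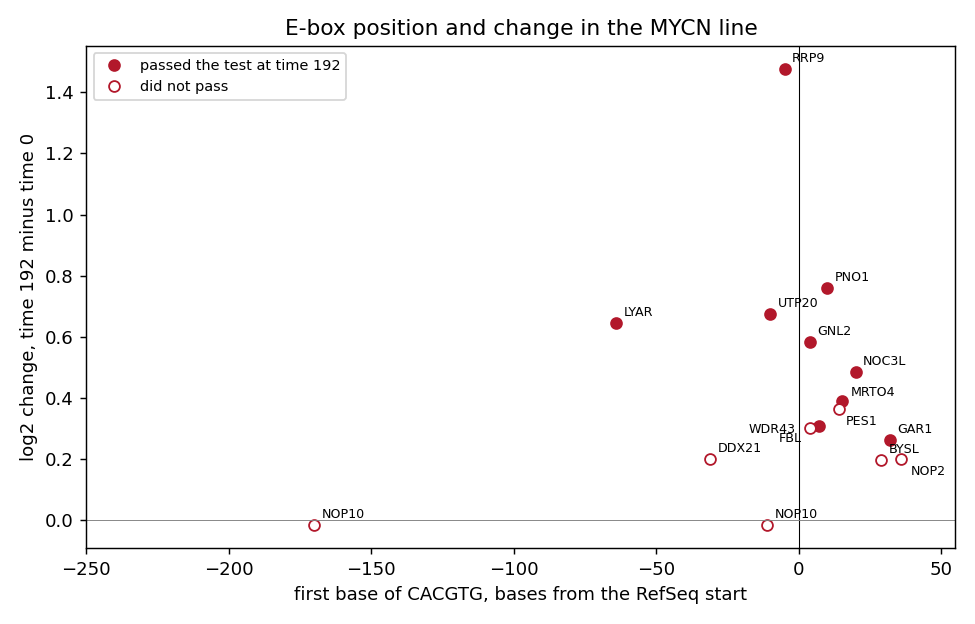
Log2 change of signal at time 192 against time 0 in the MYCN line (vertical axis) against the first base of CACGTG (horizontal axis, bases), for the 15 factors with the motif (NOP10 has 2 copies). Positions are counted from the RefSeq start of the window that holds the motif. Filled points passed the limma test at time 192 and open points did not; every factor but LYAR has a copy within 40 bases of the start, and the changes there run from -0.02 to 1.48.

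The arrays were checked first through the induced gene. The MYCN line had 1549.4, 1857.7 and 3097.8 units of MYCN signal at time 4, against 69.4, 79.2 and 103.4 units at time 0, with a peak of 4279.9 to 4778 at time 48. In the mock line it was 1.6 to 3, so the MYCN line already held more MYCN signal before induction. The signal of its relative MYC was lower at time 192 in the MYCN line (31.4, 38.3 and 135.4) than at time 0 (130.9, 222.9 and 308.2) with slightly overlapping arrays, a log2 change of -1.93 ± 0.48 (SE, adjusted p = 0.00566 by limma), and was 239.8 to 298.4 in the mock line. All 8 mesenchymal markers (VIM, FN1 and others) were above the filter. Of the 7 noradrenergic markers measured 5 were above it, and the enzymes TH and DBH stayed between 0.4 and 8.7 in both lines. PHOX2A was 1.2 to 15.4 in the MYCN line, against 582.1 to 1133.3 in the mock line, GATA3 was 230.6 to 458.1, against 751.9 to 879.8, GATA2 was 67.8 to 226.3, against 512.7 to 645.6, and ISL1 was 97.1 to 181.7, against 378.3 to 447. The epithelial markers EPCAM, KRT5 and CDH1 did not exceed 10.5, the T cell marker CD3E reached 15.9 and the globin HBB 24.5. PTPRC, a marker of blood cells, was 1 to 36.2 in the MYCN line, against 197.6 to 262.2 in the mock line. The 2 lines thus differed in the signal of genes other than MYCN, over ranges that take in every time. How much of that went with the MYCN signal already present at time 0 was not tested, nor was its part in the results. By the signal of the spiked hybridisation control bioD the arrays formed a set of 14 (1544.4 to 1941.4, replicates 1 and 2 of the MYCN line) and another set of 14 (2322.2 to 2769.6, replicate 3 of the MYCN line and the mock line).

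After induction 22 of the 33 factors rose at 1 or more times, and none fell at any time. The share of all genes called higher at 1 or more times was not computed. At single times it ran from 0.00843% (time 4) to 11.6% (time 192). Of all genes 0.177%, 3.27%, 7.67%, 13.2% and 14.1% fell at times 8, 24, 48, 96 and 192. Among the factors RRP9 rose most, 2.78-fold at time 192, and the other increases at that time were smaller, at most 1.69-fold (PNO1). Read through the probe sets used, 11 passed no test against time 0, NOP58 and NOP10 among them. Of these 11, NHP2, NIP7 and WDR43 passed at time 192 with the replicate number as a block, and NPM1 passed at times 24, 48, 96 and 192 with the mean of its probe sets. Over the 33 the median log2 change started at 0.08 (time 4) and 0.20 (time 8), stood at 0.24 (time 24), 0.29 (time 48) and 0.24 (time 96), and ended at 0.31 (time 192). The median of all genes tested stayed between -0.03 and -0.02 over the same times.

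Calls were made at an adjusted p under 0.05 by limma, over all 11865 genes. At time 4 no factor passed (without adjustment 6 of the factors were above and 1 below time 0 at a p under 0.05; 0.00843% of all genes were called higher). At time 8, 4 factors rose (0.59% of all genes were called higher). Time 24 had 10 (3.91%), time 48 had 17 (7.04%), time 96 had 14 (10.3%) and time 192 had 18 (11.6%). The F-test over all 6 later times called 14 of the 33, against 25.4% of all genes. All 3 arrays lay above all 3 of time 0 in 7 factors by time 4 (4.14% of all genes), 11 by time 8 (7.25%), 16 by time 24 (12%), 18 by time 48 (12.3%), 16 by time 96 (15.7%) and 23 by time 192 (16.5%). UBTF at time 48 was the single case of 3 arrays all below those of time 0. The counts depended on the replicates: without replicate 2, 8 factors passed at time 192. At time 8 none passed without replicate 1 or without replicate 2, and 1 passed without replicate 3. The time 0 array of replicate 2 was the lowest of the 3 in 23 of the 33 factors, against 7 for replicate 1 and 3 for replicate 3. No such count was made over all genes, so it is not a result about the factors, and its part in the calls was not tested.

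The 4 factors that rose first, at time 8, were NOLC1, PNO1, WDR12 and GNL2, and each also passed at every later time. LYAR, RRP9, WDR3, WDR74, NOC3L and RRP1B first passed at time 24, NCL, DDX21, FBL, GAR1, UTP20, HEATR1, NOP16 and MRTO4 at time 48, and TCOF1, RRP12, NOB1 and TSR1 at time 192. WDR3 passed at time 24 and at no other time, and NCL and NOP16 only at time 48. Fitted with the replicate number as a block, 8 factors passed at time 8, DDX21, NOC3L, RRP1B and WDR74 being those gained, and with the 2 control-signal sets as a block 7 did. The shares of all genes called under these blocks are not given here.

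**Figure D2:**
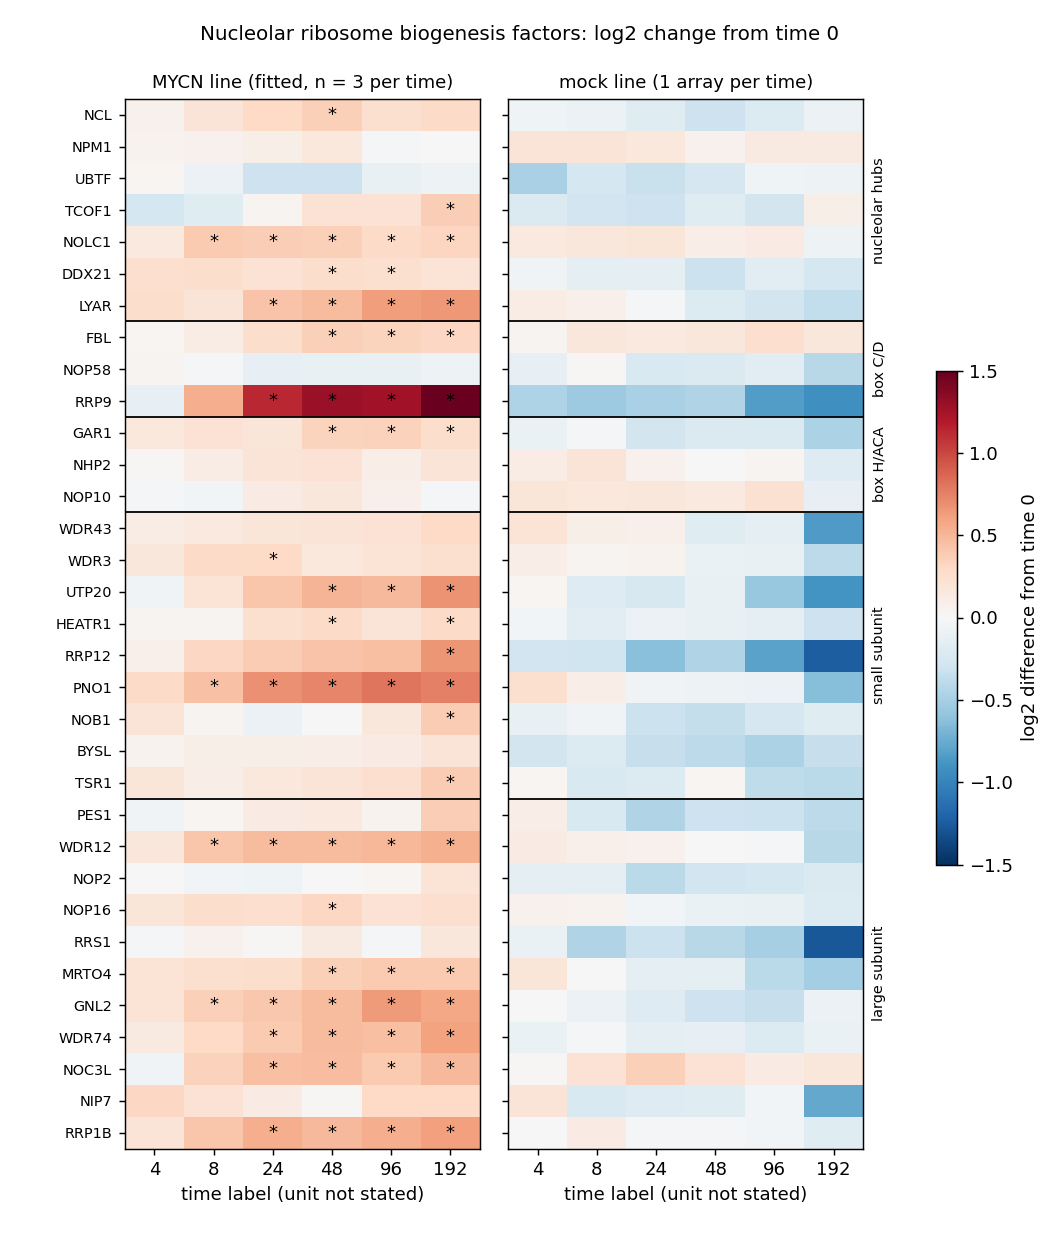
Log2 difference from time 0 (colour, red higher and blue lower) of the 33 factors, in rows by role, at the 6 later times (columns). The left panel is the limma estimate in the MYCN line (3 arrays per time, asterisks mark an adjusted p under 0.05) and the right panel is the mock line (1 array per time, no test). The left panel is mostly red from time 24 with RRP9 strongest, and the right panel is mostly blue at time 192.

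Among the 7 nucleolar hub proteins, which organise the nucleolus or act on ribosomal DNA and its transcript, 3 rose at time 192 (LYAR, TCOF1 and NOLC1), and the median log2 change was 0.29. NOLC1, also called Nopp140, a chaperone of small nucleolar RNPs, had 2405.1, 2307.5 and 2562.2 units of signal at time 8, against 1908.8, 1762.8 and 1849.4 at time 0 (chromosome 10). The 2 sets of arrays did not overlap, and the log2 change was 0.40 ± 0.07 (SE, n = 3 each, adjusted p = 0.0174 by limma). At time 192 it had 2310.1, 2214.6 and 2403.1 units, a log2 change of 0.33 ± 0.07 (adjusted p = 0.0028), close to its time 8 level. In the mock line NOLC1 lay between 1453.9 and 1743.1, below every array of the MYCN line.

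LYAR, a nucleolar protein that takes part in precursor RNA processing, had 560.2, 492.5 and 501.3 units at time 192, against 366.3, 285.9 and 345.2 at time 0 (chromosome 4). Every late array was above every time 0 array, with a log2 change of 0.65 ± 0.11 (adjusted p = 0.000214 by limma). In the mock line it was 250.7 at time 192, the lowest of its 7 arrays, against 324.4 at time 0. TCOF1, treacle, a scaffold for ribosomal DNA transcription, had 337.5, 344.1 and 388.3 units at time 192, against 274.5, 243.8 and 314.6 at time 0, a log2 change of 0.37 ± 0.12 (adjusted p = 0.0258). At time 4 it had 220.3, 223.1 and 245.8 units, a log2 change of -0.27 ± 0.12 that did not pass (adjusted p = 0.705). Another of its probe sets, the single one without an _s_at suffix, had a log2 change of -0.25 ± 0.27 at time 192.

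Nucleophosmin, NPM1, a histone chaperone and one of the most abundant nucleolar proteins, had the largest F-test p of the hubs. Its signal was 5013.6, 4643.9 and 5212.8 at time 192, against 4858.6, 4648.6 and 5369.4 at time 0, fully overlapping, with a log2 change of 0.00 ± 0.09. That is the result of 1 probe set: its 2 others, both bright, had log2 changes of 0.35 ± 0.07 and 0.65 ± 0.08 at time 192, and by the mean of its probe sets NPM1 had a change of 0.33 ± 0.06, which passed (adjusted p = 0.00126 by limma). UBTF, the RNA polymerase I factor, had 206.2, 201.6 and 257 units at time 192, against 203.2, 225.6 and 274.9 at time 0, and its change of -0.08 ± 0.15 did not pass (adjusted p = 0.749). The 3 further UBTF probe sets above the filter had values of the opposite sign, 0.20 ± 0.17, 0.19 ± 0.16 and 0.17 ± 0.17. Nucleolin, NCL, the main RNA-binding protein of the nucleolus, had 4156.3, 3918.2 and 4498 units at time 48, against 3092.5, 2864.4 and 3926.5 at time 0. It passed there (adjusted p = 0.042 by limma) and, without a block, at no other time. Its log2 changes at times 24, 96 and 192 were 0.30, 0.24 and 0.29. With the replicate block NCL passed at time 192 (adjusted p = 0.000764) and by the F-test over the times (adjusted p = 0.000518). Its results at the other times under that block are not given here. The helicase DDX21 passed at times 48 and 96 only, and had a log2 change of 0.20 at time 192 with no overlap between the arrays of the 2 times, a call gained with the replicate block (adjusted p = 0.00882).

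In the box C/D group, whose RNPs methylate ribosomal RNA, 2 of 3 factors rose at time 192, and the median log2 change was 0.31. RRP9, a protein specific to the U3 small nucleolar RNP, had the largest change of all 33. Time 0 gave 73.9, 76 and 129 units, time 4 gave 86.1, 76.7 and 84, time 8 gave 130, 146.3 and 118.7, and time 24 gave 171.3, 215.1 and 207.1 (chromosome 3). Time 48 gave 227.7, 213.9 and 219 units, time 96 gave 240.3, 248.4 and 168.6, and time 192 gave 264.7, 272.5 and 216.5. From time 24 no array overlapped time 0, and the log2 change was 1.13 ± 0.18 at time 24 (adjusted p = 0.000669 by limma) and 1.48 ± 0.18 at time 192 (adjusted p = 1.22e-05), a 2.78-fold increase. Mock cells had 49.5 units of RRP9 at time 192, the lowest of 7 arrays, against 93.5 at time 0. Fibrillarin, FBL, the methyltransferase of these RNPs, had 2388.5, 2458.5 and 2470.3 units at time 192, against 1783.5, 2020.7 and 2111.2 at time 0, a log2 change of 0.31 ± 0.10 (adjusted p = 0.0325). The scaffold protein NOP58 of the same RNPs had 1991, 1868.7 and 2128.9 units at time 192, against 2318.4, 1830.3 and 2202.3 at time 0; the arrays overlapped and its change of -0.08 ± 0.09 did not pass.

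Of the box H/ACA proteins, which together with dyskerin convert uridines of ribosomal RNA to pseudouridine, 1 of 3 rose at time 192, and the median log2 change was 0.20. GAR1 had 2103.3, 1768.5 and 1893.8 units at time 192, against 1695.6, 1506.8 and 1594 at time 0, without overlap and with a log2 change of 0.26 ± 0.09 (adjusted p = 0.0456 by limma). That call was lost when any 1 of 9 arrays was left out. The mock line lay lower throughout, between 681.1 and 944.7. NHP2 (2385.6, 2556.2 and 2515.9 at time 192, against 2047.7, 2086.9 and 2385.1 at time 0) had a log2 change of 0.20 ± 0.08 that did not pass (adjusted p = 0.0885), although all 3 arrays lay above those of time 0, and did with the replicate block (adjusted p = 0.00879). NOP10 had 2570.4, 2720.9 and 2531.8 units at time 192, against 2717, 2910.4 and 2316.4 at time 0, and its change of -0.02 ± 0.08 did not pass.

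Of the 9 small subunit factors, 6 rose at time 192, and the median log2 change was 0.38. PNO1, a binding partner of the late small subunit precursor, started at 816, 673.8 and 682.1 units (time 0; chromosome 2). Time 4 gave 891.1, 862.9 and 883.3 units, time 8 gave 971.6, 973 and 981.6, time 24 gave 1190.8, 1174.2 and 1105.9, and time 192 gave 1357.6, 1228.8 and 1089.6. It was above time 0 on all arrays from time 4, with a log2 change of 0.44 ± 0.09 at time 8 (adjusted p = 0.0253 by limma) and 0.76 ± 0.09 at time 192 (adjusted p = 6.02e-06). The dimmer PNO1 probe sets changed by 0.17 ± 0.13 and 0.71 ± 0.15 at time 192. In the mock line PNO1 ran between 337.3, at time 192, and 620.4, below every time 0 array of the MYCN line.

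UTP20, a large repeat protein of the small subunit processome, had 335.9, 301.2 and 380.6 units at time 192, against 212.1, 179.8 and 248.6 at time 0, a log2 change of 0.67 ± 0.15 (adjusted p = 0.00295 by limma). RRP12, which helps export of the subunits, had 436.7, 449.3 and 496.3 units at time 192, against 333.3, 194.2 and 381.6 at time 0, a log2 change of 0.66 ± 0.20 (adjusted p = 0.0196). Its replicate 2 array at time 0 was far below the other two, and without that array or without replicate 3 at time 192 RRP12 no longer passed. NOB1, the endonuclease that makes the final cut of the small subunit RNA, had 813, 722.9 and 628.1 units at time 192, against 597.6, 473.4 and 587.4 at time 0, a log2 change of 0.38 ± 0.10 (adjusted p = 0.00577). NOB1 read 550.5, 550.8 and 547.9 units at time 48, inside the range of time 0. TSR1, a GTPase-like assembly factor, changed by 0.39 (adjusted p = 0.0117) and HEATR1, also called UTP10, by 0.29 (adjusted p = 0.0194) at time 192, and each had a dimmer probe set with a value below 0, -0.0021 for TSR1 and -0.11 for HEATR1.

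BYSL, the human counterpart of yeast Enp1, had the largest F-test p of the small subunit factors. It had 438.1, 388.1 and 386.4 units at time 192, against 385.4, 293 and 386.1 at time 0, a log2 change of 0.20 ± 0.11 that did not pass (adjusted p = 0.224). The UTP proteins WDR3 and WDR43 had log2 changes of 0.24 and 0.30 at time 192, and neither passed there without the replicate block, with which both did (adjusted p = 0.0306 for WDR3 and 0.0343 for WDR43).

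Of the 11 large subunit factors, 6 rose at time 192, and the median log2 change was 0.39. GNL2, a nucleolar GTPase, started at 617.5, 626.2 and 648.6 units (time 0; chromosome 1), and had 834, 820.1 and 775.5 at time 8, then 1008.5, 931.2 and 896.9 at time 192. Neither later time overlapped time 0, and the log2 change was 0.36 ± 0.08 at time 8 (adjusted p = 0.0285 by limma) and 0.58 ± 0.08 at time 192 (adjusted p = 1.91e-05). Mock cells had 612.2 units of GNL2 at time 192, against 653.2 at time 0. WDR12, which forms the PeBoW complex with PES1 and BOP1, started at 1054.5, 950 and 922.8 units (time 0), and had 1295.8, 1331.4 and 1286.1 at time 8, then 1534.2, 1442.5 and 1265.6 at time 192. Its log2 change was 0.42 ± 0.07 at time 8 (adjusted p = 0.0115) and 0.53 ± 0.07 at time 192 (adjusted p = 3.95e-05). Its complex partner PES1 had a log2 change of 0.36 ± 0.14 at time 192 with overlapping arrays, and did not pass (adjusted p = 0.0699).

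WDR74, which acts with the AAA ATPase NVL on precursor particles, had 740.5, 699.7 and 722 units at time 192, against 478, 420.9 and 532.6 at time 0, a log2 change of 0.60 ± 0.08 (adjusted p = 2.66e-05 by limma). Its second bright probe set had a log2 change of 0.96 ± 0.28. RRP1B, a nucleolar protein related to yeast Rrp1, changed by 0.62 (adjusted p = 0.00093), NOC3L by 0.48 (adjusted p = 0.000602) and MRTO4, a relative of the stalk protein P0, by 0.39 (adjusted p = 0.00855) at time 192. RRS1, needed in yeast to bring the 5S RNP to the precursor, had 810.4, 935.8 and 851.5 units at time 192, against 784.7, 711.1 and 819.8 at time 0, and its change of 0.17 ± 0.12 did not pass (adjusted p = 0.357). NIP7, NOP16 and the methyltransferase NOP2 had log2 changes of 0.30, 0.25 and 0.20 at time 192, and none of the 3 passed there, but NIP7 and NOP16 did with the replicate block (adjusted p = 0.0168 and 0.037).

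**Figure D3:**
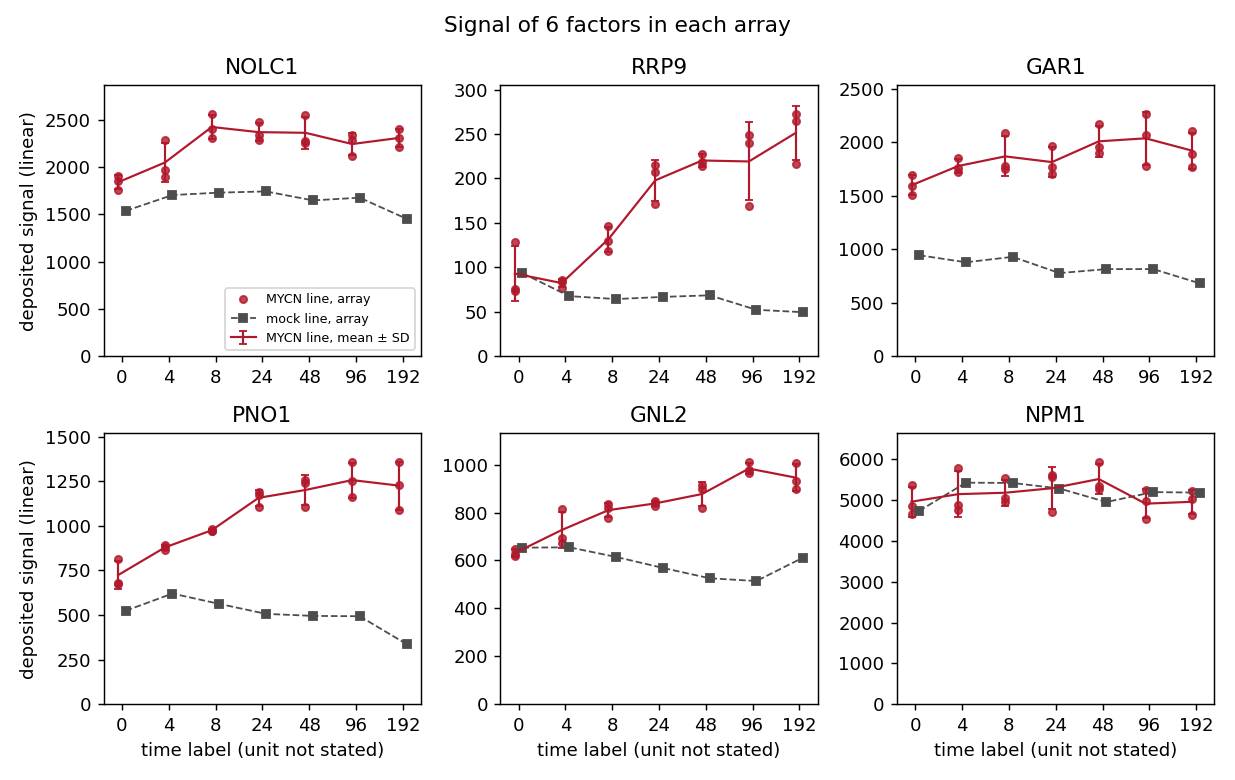
Deposited linear signal (vertical axis, from 0) of 6 factors at each time (horizontal axis, evenly spaced steps). Red points are the 3 arrays of the MYCN line with mean ± SD, and grey squares the single arrays of the mock line. RRP9, PNO1 and GNL2 climb across the times, NOLC1 levels off after time 8, GAR1 differs between the lines at every time, and the NPM1 probe set used stays between 4523.2 and 5929.3 in both lines.

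Later steps of the course were compared with each other. Between time 24 and time 8 no factor passed by limma, without adjustment 5 were above and none below at a p under 0.05, the median log2 change was 0.05 against -0.01 over all genes, and 0.447% of all genes were called higher and 0.228% lower. Between time 192 and time 48 none passed, without adjustment 2 were above and 1 below at a p under 0.05, the median was 0.07 against -0.0025 over all genes, and 0.219% of all genes were called higher and 0.548% lower. The largest value between times 24 and 8 was 0.59, for RRP9 (adjusted p = 0.163), and between times 192 and 48 it was 0.38, for NOB1 (adjusted p = 0.0672). With the replicate number as a block, 1 factor passed between times 192 and 48.

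**Figure D4:**
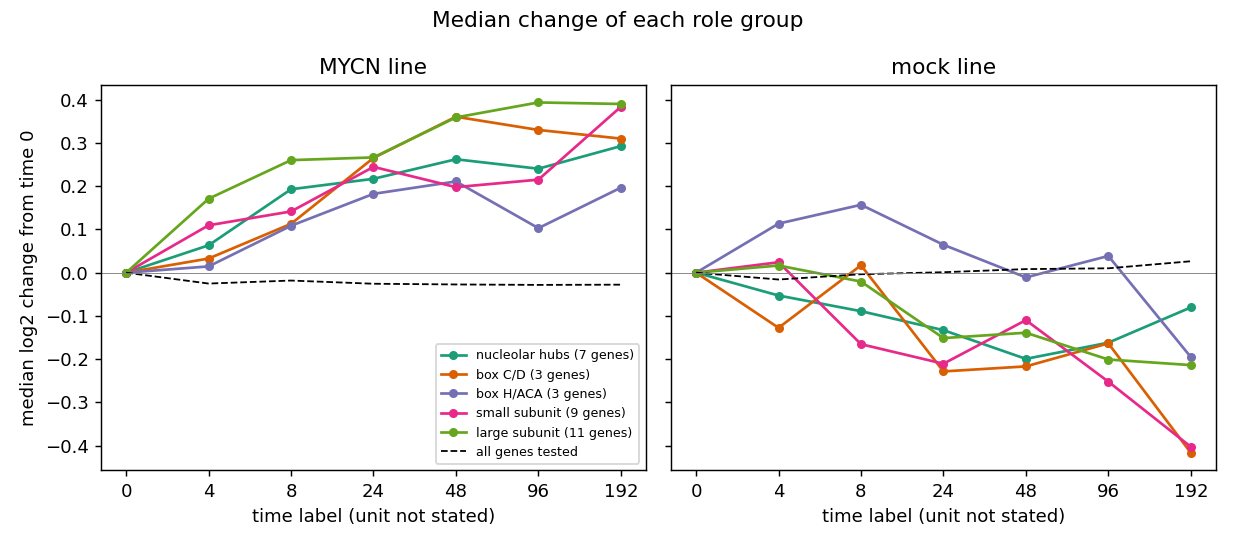
Median log2 change from time 0 of the 5 role groups (coloured lines, with their numbers of genes) and of all genes tested (dashed) at each time, in the MYCN line (left) and the mock line (right, 1 array per time). In the MYCN line the 5 medians lie between 0.20 and 0.39 at time 192 with all genes near 0, and in the mock line all 5 are below 0 at time 192.

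In the mock line most of the factors lay below their time 0 signal from time 8 on, furthest at the last time. The median log2 difference of the 33 from time 0 was 0.02, -0.02, -0.15, -0.18, -0.16 and -0.31 at times 4, 8, 24, 48, 96 and 192, on single arrays with no test; all genes had a median of 0.03 at time 192. The time 192 array was the lowest of the 7 in 20 of the 33. That count was not made over all genes, so it is not read as particular to the factors. A slope on the time step (0 to 6) was negative in 28 factors and passed in 4, all falling: RRP12, RRS1, UTP20 and MRTO4 (1.52% of all genes were called lower). RRP12 had 118.6 units at time 192, against 279 at time 0, and a slope of -0.17 ± 0.03 per step (n = 7 arrays, adjusted p = 0.0174 by limma), but the mean of its probe sets had a slope of 0.07. RRS1 had 298 units at time 192, against 718.1 at time 0, a slope of -0.16 ± 0.03 (adjusted p = 0.0323). UTP20 had 112.7 units at time 192, against 210.1 at time 0, and MRTO4 334.2, against 474.7. Without the time 192 array none of the 4 passed, and the same held without the time 4 or the time 8 array.

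That last mock array also stood apart in its controls. The ratio of 5′ to 3′ actin signal, a measure of RNA quality, was 0.761 to 0.906 in the MYCN line and 0.643 to 0.750 in the mock line, with the 0.643 in that array. Its median signal of 20.2 was the highest of the 28. From time 0 to time 192 the mock line's actin ratio read 0.7503, 0.7184, 0.7131, 0.7042, 0.6925, 0.7096 and 0.6434. The ratio thus fell at every step but that from time 48 to time 96, along the time step of the mock slope. The part these played was not tested. With quantile normalization 4 factors again passed for the mock trend. That setting evens out the distribution of signals between arrays and does not act on the 5′ to 3′ ratio, so it cannot decide the part of RNA quality. The share of all genes called under it is not given here.

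The slopes of the 2 lines were then compared by their interaction over all 28 arrays. It passed for 22 of the 33 factors, each with the higher slope in the MYCN line, against 11.2% of all genes called in that direction and 12.8% in the other, and the median difference was 0.09 log2 per step, against -0.01 over all genes. In each of the 22 the MYCN line's slope was positive and the mock line's negative, and in 14 of them the mock slope was the larger in size. So the difference is made of both lines' slopes, and the mock slope comes from a single series of arrays. By role it passed for 2 of 7 hubs, 1 of 3 box C/D proteins, 2 of 3 box H/ACA proteins, 8 of 9 small subunit factors and 9 of 11 large subunit factors.

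The largest differences were in RRP9, RRP12 and UTP20. RRP9 had a slope of 0.28 in the MYCN line, against -0.12 in the mock line, a difference of 0.41 ± 0.06 per step (adjusted p = 1.55e-05 by limma). For RRP12 the MYCN line's slope was 0.10 and the mock line's -0.17, a difference of 0.28 ± 0.05 (adjusted p = 0.000104, not kept with the mean of its probe sets), and for UTP20 they were 0.12 and -0.14, a difference of 0.26 ± 0.04 (adjusted p = 3.42e-05). UBTF, NPM1 and NOP10, through the probe sets used, stood at the other end with differences of -0.05, -0.01 and 0.02, none of which passed. FBL had a positive slope in both lines (MYCN 0.06, mock 0.03), and so did NOC3L (MYCN 0.09, mock 0.03). RRS1 passed (difference 0.18 ± 0.04, adjusted p = 0.000471) although its slope in the MYCN line was 0.02, so most of its difference came from the mock line. Within the array set that held the mock line and replicate 3 of the MYCN line, 12 factors passed, and without the mock array of time 192, 14 did. The shares of all genes under these settings are not given here.

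**Figure D5:**
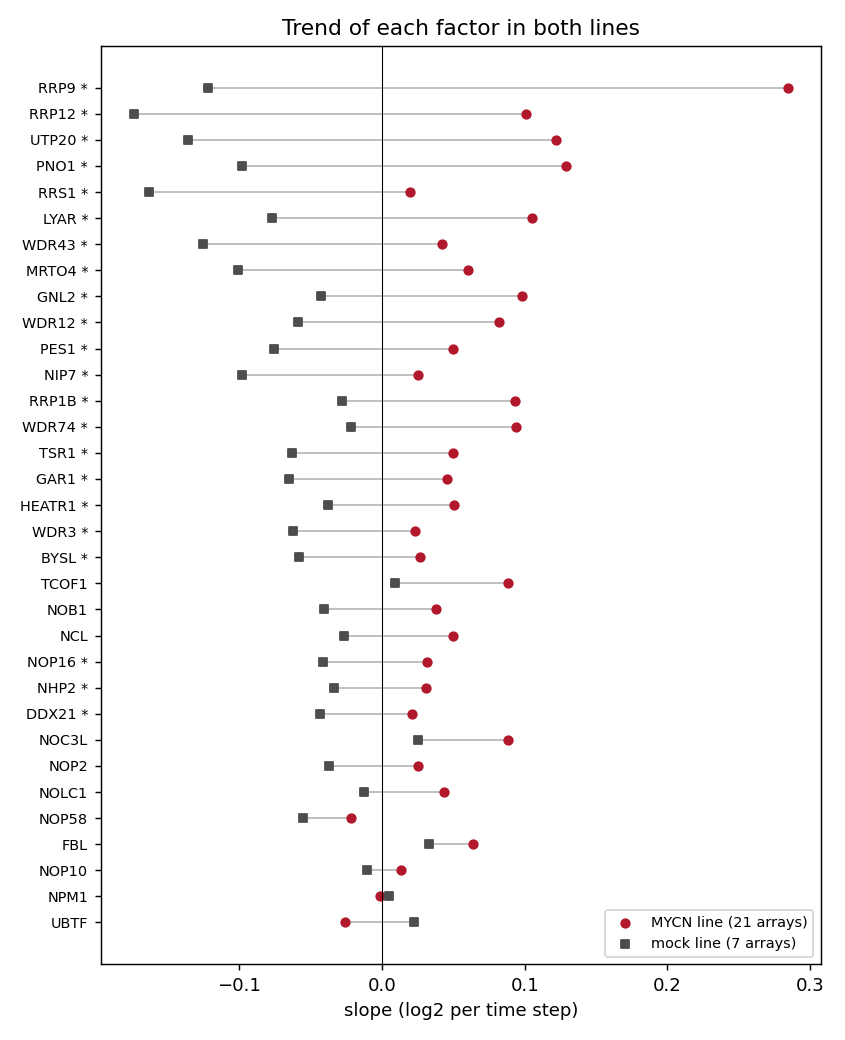
Slope of log2 signal per time step (horizontal axis) of the 33 factors, ordered by the difference between the lines. Red circles are the MYCN line (21 arrays), grey squares the mock line (7 arrays), and an asterisk marks a difference with an adjusted p under 0.05; 30 circles lie above 0 and 28 squares below it.

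At time 0 the single mock array was set beside the 3 MYCN arrays. All 3 MYCN arrays lay above the mock array in 12 factors and below it in 6, and in 15 the mock array was within their range. GAR1 was 1695.6, 1506.8 and 1594 in the MYCN line, against 944.7 in the mock line, and TSR1 was 1052.6, 927.8 and 1284.2, against 540.1. NOP2 went the other way, with 355.2, 267.7 and 367.3 in the MYCN line, against 518.9 in the mock line. With 1 mock array no test was made. The same count over all genes was not made either, so these counts are not a result about the factors.

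A list of other ribosome assembly factors, known from the same pathway, was read in the same way. Of 84 listed, 81 were tested, and 4, 9, 17, 34 and 35 rose at times 8, 24, 48, 96 and 192. Of all genes 0.59%, 3.91%, 7.04%, 10.3% and 11.6% were called higher at those times. Among the 81, 1 fell at time 48 (7.67% of all genes), 2 at time 96 (13.2%) and 3 at time 192 (14.1%), and the median log2 change at time 192 was 0.30. The helicase DHX37 averaged 249 ± 19.0 units at time 192, against 110 ± 15.5 at time 0 (SD, n = 3 each), a log2 change of 1.19 ± 0.18 (SE, adjusted p = 6.4e-05 by limma). DDX10, another helicase, averaged 397 ± 31.7 units at time 192, against 202 ± 14.2 at time 0, a log2 change of 0.97, and the helicase DDX51 185 ± 42.2, against 98.2 ± 16.5, a change of 0.90. The 3 that fell were IMP3, a partner of the U3 RNP (576 ± 74.6 at time 192, against 719 ± 12.03 at time 0), FTSJ3 (860 ± 42.3, against 1071 ± 151) and RRP36 (727 ± 17.5, against 874 ± 79.3), by 0.33, 0.31 and 0.26 on the log2 scale. The interaction of line and time passed for 42 of the 81, all higher in the MYCN line (11.2% of all genes), and the mock trend for 4, all lower (1.52% of all genes).

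The calls did not all rest on equally firm ground. At time 192, 7 of the 18 risers (GNL2, LYAR, NOC3L, PNO1, RRP9, WDR12 and WDR74) passed under every alternative setting in which they were tested. LYAR has only _s_at probe sets, so it was not tested without those, here or for the difference in slopes. Of the 18, 11 kept their call whichever single array was left out. FBL lost its call without any of 5 arrays and TCOF1 without any of 3, while HEATR1, MRTO4, RRP12 and TSR1 lost theirs without the time 0 array of replicate 2, among others for HEATR1 and RRP12. For the difference in slopes, 7 of 22 (GAR1, GNL2, LYAR, MRTO4, PNO1, RRP9 and UTP20) passed under every setting, and GNL2, LYAR, PNO1 and RRP9 were in both groups. Of the 33 factors, 19 had more than 1 probe set; 31 further probe sets were above the filter, and 25 of them had a time 192 value of the same sign as the probe set used.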

How the data were processed

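Total RNA of 28 samples of SK-N-AS cells was measured on single-colour Affymetrix arrays. The deposited values are linear signal intensity, 1 per probe set and array; per the submitters' processing notes they come from Affymetrix software (MAS5, GCOS), which combines the probes of a set and scales every array, and its version is not given in the sources read. The precision is limited by the number of arrays, and array medians were 12.9 to 20.2.

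The members and gene lists were chosen with earlier results of these data known. Values at or under 0 (91) were set to 0.1 and taken to log2. Of 54675 probe sets 41091 name 1 gene, and the brightest per gene was used. A gene was tested where its mean log2 reached the 40th percentile (3.68, a signal of 12.8), with limma 3.58.1 in R 4.3.3 (lmFit, eBayes with trend): times in the MYCN line (21 arrays, 14 residual degrees of freedom), a slope in the mock line (7 arrays, 5) and the interaction of line and step (28 arrays, 24). Tests were two-sided, with Benjamini-Hochberg adjustment over 11865 genes. The scripts were tested on simulated data.

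Genes described with values at both ends of the course were, per role, the 3 with the smallest and the 1 with the largest F-test p, those called at times 4 or 8, those called lower, and the 3 with the highest and lowest differences in trend; of other factors, the 3 largest called changes each way. Any other factor could be named with its change at time 192, and values of NCL, DDX21, MRTO4, RRS1, TSR1 and NOP2 beyond that were picked after they were seen.

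Same-numbered replicates, paired by their numbers in the labels, deviated together from their group means at times 4, 8 and 192 (correlations 0.129 to 0.367 over genes). At times 24, 48 and 96 replicates 1 and 3 did so (0.122 to 0.329), while replicate 2 gave -0.06, 0.05 and -0.02. Alternatives were array scaling, offset, filter, probe set choice, blocks, array sets and left-out arrays.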

Additional observations from a re-analysis of the deposited data

Results flagged for a closer look

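The trend over the times differed between the MYCN line and the mock line, by limma's interaction test, in 22 of the 33 factors. The differences, in log2 per time step as MYCN line minus mock line, were 0.41 for RRP9, 0.28 for RRP12, 0.26 for UTP20 and 0.23 for PNO1. They were 0.18 for RRS1, 0.18 for LYAR, 0.17 for WDR43, 0.16 for MRTO4, 0.14 for GNL2 and 0.14 for WDR12. For PES1 the difference was 0.13, for NIP7 0.12, for RRP1B 0.12, for WDR74 0.12, for TSR1 0.11 and for GAR1 0.11. The smallest were 0.088 for HEATR1, 0.0859 for WDR3, 0.085 for BYSL, 0.0733 for NOP16, 0.0646 for NHP2 and 0.064 for DDX21.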

How the results depend on the processing

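The counts at time 4 and between times 24 and 8 stayed at 0 in all settings tried. The 4 factors called at time 8 became 0 with equal array medians or only the arrays of the 2 times, 2 with the mean of probe sets, 1 within the first array set, 8 with the replicate block and 7 with the hybridisation control block. Time 24 gave 6 without _s_at and _x_at probe sets, time 48 gave 6 with only the arrays of the 2 times, and times 192 against 48 gave 1 with either block. With the replicate block in this paired fit, 25 passed at time 192, 18 at time 48 and 19 by the F-test. The shares of all genes called under the alternative settings and left-out arrays are not given in this text. A changed count is thus not read as particular to the factors. The mock trend gave 1 without the filter, 0 with the mean of probe sets and 2 without _s_at and _x_at probe sets, and the difference in trend gave 14 with the mean of probe sets and 12 within the second array set.

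Leaving out 1 replicate number gave 0 to 1 at time 8, 1 to 11 at time 24, 2 to 17 at time 48, 4 to 17 at time 96, 8 to 23 at time 192, 3 to 20 by the F-test and 16 to 23 for the difference in trend, lowest without replicate 2 throughout (at time 8 also without replicate 1). Leaving out single arrays gave 0 to 5, 7 to 11, 9 to 17, 10 to 19 and 11 to 23 at times 8 to 192, 0 to 1 for times 192 against 48, 12 to 17 by the F-test, 0 to 8 for the mock trend and 14 to 24 for the difference in trend, the last lowest without the mock array of time 192.

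Signs turned with probe set choice. By the mean of probe sets HEATR1 was -0.14 at time 48, the difference in trend was -0.00025 for PES1 and -0.00539 for WDR3, and the mock slope of RRP12 was 0.071. Without _s_at and _x_at probe sets TCOF1 was -0.25 and TSR1 -0.0021 at time 192, the difference in trend was -0.056 for TSR1 and -0.097 for WDR3, and the RRP12 mock slope was 0.018. The cause was not tested.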
